A study of Bos taurus with 18 samples.

Results

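The first extra day of culture after the blastocoel had formed on day 6 was followed in bovine blastocysts made in vitro, by setting the 3 arrays of day6+1 against the 3 arrays of day6 over all genes. These 6 arrays were chosen by their titles, out of 18 arrays in 6 groups of 3. The day6 blastocysts were collected on the day their fluid cavity, the blastocoel, had formed, 6 days after fertilisation. The day6+1 blastocysts had formed it on the same day and were kept in culture for 1 more day. All groups were produced in vitro with no drug, transgene or mutation. For day6 the labels describe oocytes from slaughterhouse ovaries, frozen semen of a single bull and development on VERO cells, a monkey kidney line that serves as a feeder layer; for day6+1 they give no culture protocol, and the series' design text puts both groups in small drops of medium at low oxygen. The groups day7 and day7+1 (cavity formed on day 7, with no extra day or 1) and day6+2 (2 extra days after day 6) are used for comparison. The arrays are labelled as biological replicates, but neither the number of embryos behind an array nor separate cultures are stated, and a p-value therefore speaks only of how far these samples scatter, which may in part be technical.

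The blastocyst at this age holds an outer epithelium, the trophectoderm, around an inner cell mass that sorts into epiblast and hypoblast. The trophectoderm pumps fluid into the cavity, makes contact with the uterus and founds the placenta. In ruminants it also secretes interferon tau, the pregnancy recognition signal, and later the pregnancy-associated glycoproteins and steroids. While the cavity expands, the embryo relies increasingly on glucose, the epithelium tightens its desmosomes and junctions, and the inner cells separate the epiblast factor NANOG from hypoblast factors.

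Each array was hybridised with RNA that had been amplified in 2 rounds and labelled with Cy3 (Agilent, 1 colour, bovine EmbryoGENE design). A level below is the log2 intensity of 1 probe per gene on 1 array, always in the order of replicates 1, 2 and 3. A difference is day6+1 minus day6 on the log2 scale, from a limma fit over all 18 arrays, with its standard error (SE) and a p-value adjusted by the Benjamini-Hochberg method over all 34265 features tested (14543 genes and 19722 probes without a gene symbol); the threshold was 0.05. A level with ± is a mean with its SD (n = 3 arrays). Over the 6 arrays the median raw signal was 192 to 261, the median background 15 to 16 (intensity units), and the share of the 43794 probes brighter than the 95th percentile of the negative controls 73.4% to 80.2%. Replicates 1 and 2 of day6 shared slide 1, replicates 1 and 2 of day6+1 shared slide 3, and only slide 4 held an array of both groups, replicate 3 of each. One array stood apart: day6+1 replicate 1 lay with the 3 day8 arrays and day7 replicate 1 on the first principal component, which carried 19.1% of the variance. None of the features called below followed that component with a correlation over 0.8 in size. A feature that did could hardly be called, because the day6+1 scores (36.1, -12.1 and -21.4) surround those of day6 (-17.5, -16.0 and 6.8).

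Between day6 and day6+1, 429 features differed past the threshold (1.25% of all tested). Of these, 303 were higher in day6+1 (0.884%) and 126 lower (0.368%). Among genes with a symbol, 200 rose (1.38% of genes) and 75 fell (0.516%), and 157 and 60 of them changed by at least 1 on the log2 scale. The arrays of the 2 groups did not overlap for 428 of the 429 features, while 15.2% of all features showed such a separation. At an unadjusted p under 0.05 the count was 3365. The median difference over all features was -0.01. With 1 array of day6 left out, the count was 239, 132 or 358 (replicates 1, 2 and 3 in turn), and with 1 array of day6+1 left out it was 364, 127 or 270. All 429 differences had the same sign in each of these 6 fits, which for the 428 without overlap could not be otherwise. With the 2 arrays that stood apart left out (day6+1 and day7 replicate 1), 396 features passed. With arrays centred on their median in place of quantile normalization, 391 features rose and 50 fell.

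**Figure D1:**
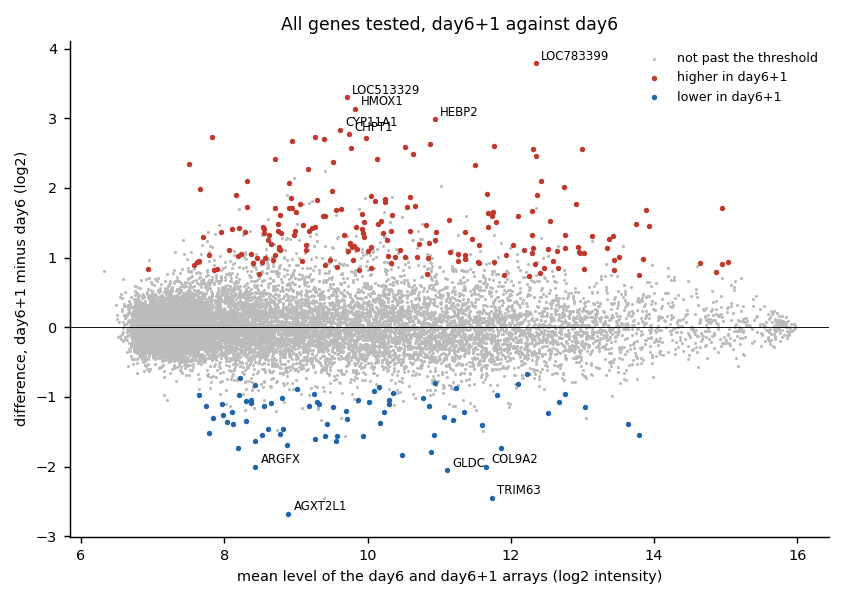
Each point is 1 of 14543 genes, with its mean level over day6 and day6+1 (log2 intensity) on the x axis and the difference day6+1 minus day6 (log2) on the y axis; red and blue mark the 200 genes that rose and the 75 that fell past the threshold, grey the rest. The rises reach further from 0 than the falls, up to 3.79 for LOC783399 and down to -2.68 for AGXT2L1.

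Slide and group were largely confounded. The sample numbers of day6, day6+2 and day8 also run together, and those of day6+1, day7 and day7+1 form a separate run. The labels give a culture protocol only for the former, so day6 and day6+1 differ in this as well. Whether the runs were handled or submitted apart is not stated, and such a difference could not be told apart from the extra day. Between the replicate 3 arrays of slide 4 alone, 303 of the 303 rises and 126 of the 126 falls had the same sign as in the fit. These 2 arrays are also part of the fit. For the 428 features whose groups did not overlap, the sign could not differ, so it says nothing about the slide. The median difference on slide 4 was 1.17 for the rises and -1.04 for the falls, against 1.29 and -1.14 in the fit. With slide as a fixed block the median differences were 1.24 and -1.13, the median SE of the rises grew from 0.246 to 0.346, and 29 features passed (25 higher and 4 lower). Of 98 called genes that the naming rule picks out, 11 passed with the slide as a block: CHPT1, PRPH, QSOX1, STAP2, TRIM63, COL9A2, PLAU, PTGS2, PMVK, SLC23A1 and ARPC1B. The other 87 kept their sign there without passing. The slide-4 difference is therefore given beside the main genes.

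The tissue label was checked against defining markers. Of the trophectoderm markers, KRT8 stood at 15.93 ± 0.04 in day6 and 15.88 ± 0.03 in day6+1, and TFAP2C at 14.88 ± 0.19 and 14.79 ± 0.20, high on the scale. GATA3 stood lower, at 9.03 ± 0.22 and 9.17 ± 0.18, and CDX2 at 7.48 ± 0.29 and 8.32 ± 0.08. The epiblast markers POU5F1 and SOX2 and the hypoblast markers GATA4, PDGFRA and SOX17 were above the negative controls on all 6 arrays, with SOX17 and SOX2 near the lower end of the scale, at 7.44 ± 0.36 and 7.85 ± 0.36 in day6. The markers GATA6 and SLC12A1 are not analysed here, and AMH and HAS2 did not pass the filter on dim probes. Of 16 cumulus and granulosa genes, 1 rose (PTGS2, which the trophectoderm also makes), 1 of 14 blood genes fell (HBB), and none of 20 fibroblast and kidney genes or 31 oocyte transcripts passed. In the lists with no call, the members with the smallest p were SLC34A1 (-0.44 ± 0.24, adjusted p = 0.62) and LUM (-0.27 ± 0.20, adjusted p = 0.769) for fibroblast and kidney, BTG4 (-0.66 ± 0.21, adjusted p = 0.146) and ZP4 (-0.77 ± 0.26, adjusted p = 0.191) for the oocyte, and EIF1AY (0.83 ± 0.27, adjusted p = 0.176) and HPRT1 (-0.75 ± 0.25, adjusted p = 0.195) among 16 X- and Y-linked genes. The summed intensity of the cumulus list was 10217 to 13740 in day6 and 15810 to 17298 in day6+1, and without PTGS2 it was 8934 to 10860 and 10074 to 10833. The fibroblast and kidney list summed to 6293 to 9261 and 7466 to 13258, the blood list to 3993 to 4710 and 3178 to 3602, and the oocyte list to 25533 to 29235 and 20108 to 23549. Of the defining markers of other cells, FSHR was at 7.28 ± 0.21 and 7.76 ± 0.27, PTX3 at 7.30 ± 0.39 and 7.45 ± 0.08, COL1A1 at 7.98 ± 0.28 and 8.21 ± 0.07, PAX8 at 8.28 ± 0.27 and 8.12 ± 0.44, CDH16 at 7.24 ± 0.12 and 7.19 ± 0.12, and PTPRC at 7.35 ± 0.31 and 7.77 ± 0.53, while COL1A2 was higher on the scale, at 10.74 ± 0.27 and 10.87 ± 0.52. CYP19A1, a granulosa marker, was at 8.80 ± 0.15 and 8.29 ± 0.22. Like the embryo markers, FSHR, CYP19A1, COL1A1, COL1A2 and PAX8 were above the negative controls on all 6 arrays. The part of other cells in the results was not tested. Because whole blastocysts were measured, fewer cells of a type and less RNA per cell cannot be told apart.

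The largest rise was that of LOC783399, a bovine locus without a gene name. Its levels were 11.01, 10.43 and 9.91 in day6 and 14.47, 14.82 and 13.43 in day6+1. The lowest day6+1 array thus lay far above the highest day6 array, and the difference was 3.79 ± 0.54 (13.8-fold, adjusted p = 0.000797), with 3.52 on slide 4. The next was LOC513329, at 8.73, 8.13 and 7.33 in day6 and 11.63, 12.21 and 10.25 in day6+1. The groups were again apart, with a difference of 3.30 ± 0.64 (adjusted p = 0.00948) and 2.92 on slide 4. In the ARS-UCD2.0 gene table these loci neighbour each other with only ZFP37, a zinc finger gene, between them. ZFP37, looked up after the values were seen, differed by 0.15 ± 0.19 (adjusted p = 0.921).

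Further large rises were in genes outside the lists. CHPT1, which carries out the last step of phosphatidylcholine synthesis, measured 8.32, 7.80 and 8.93 in day6 and 10.95, 11.35 and 11.06 in day6+1. All 3 day6+1 arrays lay close together and above day6, and the difference of 2.77 ± 0.28 had the smallest adjusted p of all features (6.07e-05; 2.13 on slide 4; 2.45 ± 0.36, adjusted p = 0.0163 with the slide as a block). QSOX1, an oxidase that forms disulfide bonds in secreted proteins, went from 9.07, 8.33 and 8.48 to 10.63, 12.12 and 11.26. The groups did not overlap, and replicate 2 of day6+1 was the highest (2.71 ± 0.32, adjusted p = 0.000119; slide 4, 2.78). MUC1, a mucin of the cell surface, was at 8.70, 7.21 and 8.20 in day6 and at 9.75, 11.57 and 10.92 in day6+1. Its day6+1 arrays were spread widely but stayed above day6 (2.71 ± 0.51, adjusted p = 0.00784; slide 4, 2.72). PRPH, the intermediate filament protein peripherin, rose from 7.90 ± 0.69 to 10.64 ± 0.21 (2.73 ± 0.29, adjusted p = 7.39e-05). STAP2, an adaptor of kinase signalling, rose from 9.23 ± 0.69 to 11.82 ± 0.62 (2.59 ± 0.36, adjusted p = 0.000542), whereas its 3 other probes differed by -0.04 to 0.70.

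CCL17, a chemokine that attracts T cells, read 8.00, 6.75 and 8.06 in day6 and 9.87, 10.66 and 10.31 in day6+1, so the lowest array was day6 replicate 2 and the groups did not overlap. The difference was 2.67 ± 0.39 (6.38-fold, adjusted p = 0.00085), and 2.24 on slide 4. MYL7, a myosin light chain of the heart atrium, read 11.72, 8.67 and 10.99 and 12.40, 13.60 and 13.18. Here day6 alone spanned a wide range, and day6 replicate 1 came close to the lowest day6+1 array (2.60 ± 0.56, adjusted p = 0.0199; other probes, 1.75 to 2.26). Among these large rises, the calls of LOC783399, CHPT1, QSOX1, PRPH, STAP2 and CCL17 were kept whichever array was left out. The call ended in at least 1 such fit for LOC513329 (2.88, adjusted p = 0.0873 without day6+1 replicate 2), MUC1 (2.30, adjusted p = 0.085 without day6 replicate 2) and MYL7 (1.70, adjusted p = 0.145 without day6 replicate 2), each given where its adjusted p was highest. Further settings that ended a call were the trended, robust variance model (LOC513329, MUC1 and MYL7) and a fit on the 6 arrays alone (MYL7).

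**Figure D2:**
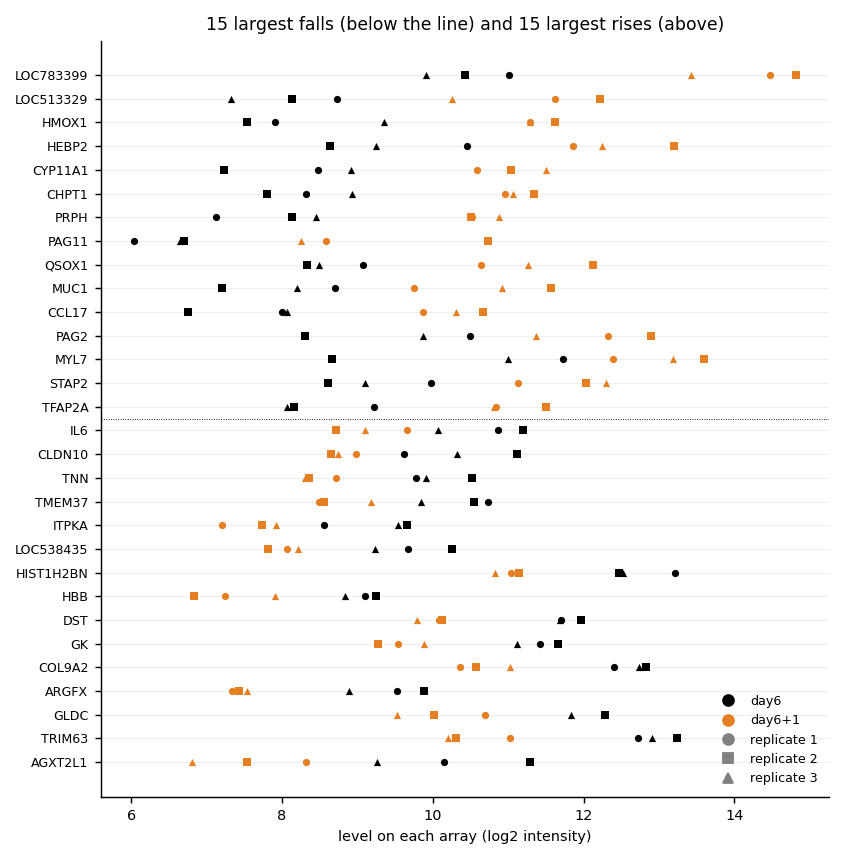
Levels (log2 intensity) of the 15 largest falls and the 15 largest rises among called genes whose day6 and day6+1 arrays do not overlap, with 1 row per gene and 1 symbol per array; black is day6, orange day6+1, and the symbol shape gives the replicate. The separate ranges of the black and orange symbols follow from how the genes were chosen; the black and orange symbols come closest in IL6.

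Trophectoderm genes changed in a limited set. Of 34 transcription factors and epithelial markers of the trophectoderm tested, 4 rose and none fell (11.8%), and the median difference of the list was 0.13. TFAP2A, an AP-2 factor of trophoblast and epidermis, measured 9.22, 8.15 and 8.06 in day6 and 10.84, 11.49 and 10.81 in day6+1. Every day6+1 array exceeded every day6 array by over 1 log2 unit, and the difference was 2.57 ± 0.32 (5.95-fold, adjusted p = 0.000191; 2.76 on slide 4), although 2 other probes of the gene differed by 0.20 to 0.71. SFN, an epithelial 14-3-3 protein, went from 10.96 ± 0.44 to 12.40 ± 0.35 (1.44 ± 0.24, adjusted p = 0.00262), and DLX4, a homeobox factor of the placenta, from 10.31 ± 0.27 to 11.56 ± 0.41 (1.25 ± 0.24, adjusted p = 0.00982). CDX2, the master factor of trophectoderm in the mouse, was dim and measured 7.37, 7.26 and 7.81 in day6 and 8.36, 8.22 and 8.37 in day6+1. Its ranges were separate but close (0.84 ± 0.21, adjusted p = 0.0451; slide 4, 0.56). GATA3 differed by 0.13 ± 0.27 (adjusted p = 0.959) and TFAP2C by -0.09 ± 0.18 (adjusted p = 0.958). Of the 4 rises, those of TFAP2A and SFN were kept with each array left out in turn, and the calls ended for DLX4 (1.07, adjusted p = 0.0931 without day6+1 replicate 2) and CDX2 (0.73, adjusted p = 0.229 without day6 replicate 2). The CDX2 call also ended with subtracting the background and scaling to the 75th percentile, the slide as a random block, a fit on the 6 arrays alone and leaving out replicate 1 of day6+1 and of day7 together.

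Keratins and desmosomes, which give the trophectoderm its tensile strength, moved upward in part: 3 of 19 genes rose, none fell, and the median difference was 0.27. DSP, which links desmosomes to keratin filaments, read 11.51, 10.62 and 10.98 in day6 and 12.60, 12.59 and 12.44 in day6+1. The day6+1 arrays agreed closely and lay above all of day6 (1.51 ± 0.21, adjusted p = 0.000605; slide 4, 1.46). KRT19, a keratin of simple epithelia, read 15.13, 13.09 and 14.03 and 15.66, 15.88 and 15.87; day6 replicate 1 stood near the day6+1 arrays, at the upper end of the scale (1.72 ± 0.30, adjusted p = 0.00436; slide 4, 1.84). DSC2, a desmosomal cadherin, rose from 7.41 ± 0.09 to 8.82 ± 0.31 (1.41 ± 0.30, adjusted p = 0.018), but a second probe differed by -0.16. KRT8 and KRT18, the main keratins of the trophectoderm, differed by -0.05 ± 0.14 and 0.41 ± 0.18 (adjusted p = 0.976 and 0.425). KRT8, at 15.93 ± 0.04 in day6 and 15.88 ± 0.03 in day6+1, stood at the upper end of the scale, where a rise could hardly show. The DSP and KRT19 calls were kept with each array left out in turn, and that of DSC2 (1.23, adjusted p = 0.134 without day6+1 replicate 2) was not. DSC2 also failed with averaging a gene's probes, and KRT19 with a fit on the 6 arrays alone.

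Secreted products of the trophoblast were among the strongest changes, with 5 of 28 listed genes higher and none lower (17.9%; median 0.09, and -0.02 when arrays were scaled to the 75th percentile). PLAU, the protease urokinase, measured 12.41, 11.26 and 11.48 in day6 and 13.87, 14.41 and 14.54 in day6+1. The groups were far apart in all replicates, with a difference of 2.56 ± 0.32 (5.90-fold, adjusted p = 0.000167), 3.07 on slide 4 and 2.94 ± 0.40, adjusted p = 0.0105 with the slide as a block. IFNT, interferon tau, measured 12.13, 11.30 and 11.79 in day6 and 13.94, 13.92 and 13.39 in day6+1. No day6 array reached the day6+1 range (2.01 ± 0.43, adjusted p = 0.0179, 4.04-fold; slide 4, 1.61); the symbol matches 2 current genes, IFNT2 and IFNT3, which the probe may not tell apart. PAG2, a pregnancy-associated glycoprotein of the aspartic protease family, measured 10.49, 8.30 and 9.87 in day6 and 12.32, 12.89 and 11.37 in day6+1. Day6 replicate 1 came closest to the lowest day6+1 array, replicate 3 (2.64 ± 0.57, adjusted p = 0.0207; slide 4, 1.49).

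PAG11, another member of that family, was not above the negative controls on any day6 array and read 8.59, 10.73 and 8.25 in day6+1. Replicate 2 was the highest by far, and the rise was at least 4.47-fold (adjusted p = 0.00714; measured means, 6.46 ± 0.37 and 9.19 ± 1.35); a second PAG11 probe differed by 0.49. The PAG genes are a large family of similar sequence, so a probe may read several of them. LGALS3, the sugar-binding galectin-3, rose from 12.77 ± 0.13 to 13.91 ± 0.36 (1.14 ± 0.23, adjusted p = 0.0121), with its 3 other probes at -0.23 to 0.14. Only the PLAU call was kept in every leave-one-out fit; the calls ended for PAG2 (2.01, adjusted p = 0.18 without day6 replicate 2), IFNT (1.79, adjusted p = 0.135 without day6 replicate 2), PAG11 (1.96, adjusted p = 0.0571 without day6+1 replicate 2) and LGALS3 (1.01, adjusted p = 0.102 without day6+1 replicate 2). Further settings that ended a call were averaging a gene's probes (LGALS3), the trended, robust variance model (PAG2, IFNT and PAG11) and leaving out replicate 1 of day6+1 and of day7 together (PAG2). None of 31 interferon-stimulated genes passed (median 0.15), beside 1.89% of all genes, a share at which a list of this size may hold no call. In 6 of the 31 the day6+1 arrays all lay above day6, and in 1 all below, beside 9.48% and 8.41% of all genes. EIF2AK2, a kinase that senses double-stranded RNA, differed by 1.25 ± 0.34 (adjusted p = 0.0795) and IFI35 by -0.55 ± 0.20 (adjusted p = 0.27).

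Of 20 genes of steroid synthesis, 2 on the path to progesterone rose and none fell (10%; median 0.13). CYP11A1, which cleaves the side chain of cholesterol to give pregnenolone, measured 8.48, 7.22 and 8.91 in day6 and 10.58, 11.04 and 11.50 in day6+1. All day6+1 arrays were above day6, in which replicate 2 was lowest (2.83 ± 0.45, adjusted p = 0.00186, 7.13-fold; slide 4, 2.59). HSD3B1, which turns pregnenolone into progesterone, measured 9.53, 8.16 and 9.10 and 10.86, 11.51 and 11.66. The groups were apart in the same way (2.41 ± 0.39, adjusted p = 0.00217, 5.32-fold; slide 4, 2.56). CYP19A1, the aromatase that makes estrogens, differed by -0.51 ± 0.19 (adjusted p = 0.293). Both rises passed in every fit that left out 1 array.

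Prostaglandin genes showed 2 rises and no fall among 20 tested (median 0.02). PTGS2, the inducible cyclooxygenase that starts prostaglandin synthesis, read 11.49, 10.33 and 10.31 in day6 and 12.59, 12.78 and 12.49 in day6+1. Its day6+1 arrays were tightly grouped above day6 (1.91 ± 0.41, adjusted p = 0.0207; slide 4, 2.18; 2.24 ± 0.38, adjusted p = 0.0276 with the slide as a block), and 2 other probes differed by 0.43 to 1.52. AKR1B1, an aldose reductase that also makes prostaglandin F2alpha in bovine uterus, read 11.82, 11.01 and 11.55 and 13.03, 13.62 and 12.73, with no overlap (1.67 ± 0.35, adjusted p = 0.0167; slide 4, 1.18). Single arrays ended both calls: PTGS2 (1.72, adjusted p = 0.145 without day6 replicate 2) and AKR1B1 (1.44, adjusted p = 0.135 without day6 replicate 2). Other settings that ended a call were averaging a gene's probes (PTGS2 and AKR1B1) and the trended, robust variance model (PTGS2).

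Pluripotency and early embryo factors moved in both directions: 2 of 30 rose and 4 fell (20%), and the median was 0.03. NANOG, the epiblast factor, measured 11.21, 9.67 and 10.12 in day6 and 12.36, 12.65 and 13.00 in day6+1. The day6+1 arrays all exceeded the highest day6 array by over 1 log2 unit (2.33 ± 0.35, adjusted p = 0.00134, 5.04-fold; slide 4, 2.87). MYC, a growth and cell cycle factor, rose from 8.11 ± 0.53 to 9.46 ± 0.09 (1.35 ± 0.33, adjusted p = 0.0442). ARGFX, a homeobox gene active in the early human embryo, measured 9.53, 9.89 and 8.89 in day6 and 7.33, 7.43 and 7.53 in day6+1. The 3 day6+1 arrays lay together near the negative controls, well below day6 (-2.01 ± 0.34, adjusted p = 0.00329, 4.02-fold lower; slide 4, -1.36). SPIC, an ETS family factor, measured 10.93, 10.97 and 10.68 and 9.69, 9.28 and 9.48, with narrow separate ranges (-1.38 ± 0.24, adjusted p = 0.00479; slide 4, -1.20; a second probe, -0.27). KLF4, a factor of naive pluripotency in the mouse, fell from 13.61 ± 0.18 to 12.47 ± 0.40 (-1.14 ± 0.28, adjusted p = 0.0419). PRDM14, a germ line and pluripotency regulator, fell from 9.75 ± 0.48 to 8.62 ± 0.29 (-1.13 ± 0.25, adjusted p = 0.0267; a second probe, -0.19). POU5F1 differed by -0.72 ± 0.26 (adjusted p = 0.245) and SOX2 by -0.26 ± 0.21 (adjusted p = 0.816).

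The calls of NANOG, ARGFX and SPIC were kept with each array left out in turn. Those of the others ended: MYC (1.09, adjusted p = 0.258 without day6 replicate 2), KLF4 (-0.91, adjusted p = 0.28 without day6+1 replicate 2) and PRDM14 (-0.86, adjusted p = 0.204 without day6 replicate 2). The KLF4 call ended whichever of the 6 arrays was left out. Further settings that ended a call were averaging a gene's probes (MYC, KLF4 and PRDM14), centring arrays on the median (KLF4 and PRDM14), the authors' deposited table (MYC), the slide as a random block (MYC), a fit on the 6 arrays alone (PRDM14) and leaving out replicate 1 of day6+1 and of day7 together (MYC).

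Among 24 hypoblast genes 2 rose and 1 fell (median 0.08). HNF4A, a factor of the visceral endoderm in the mouse, measured 12.27, 12.03 and 12.00 in day6 and 13.23, 13.37 and 13.65 in day6+1, in narrow separate ranges (1.32 ± 0.30, adjusted p = 0.0267; slide 4, 1.66), but its 2 other probes differed by -0.02 to 0.06. APOA1, the apolipoprotein of high-density lipoprotein, measured 8.63, 8.08 and 8.45 and 9.65, 10.23 and 10.76. The groups did not overlap, and a second probe moved alike (1.83 ± 0.37, adjusted p = 0.0148; other probe, 1.41). GATA4 varied widely in day6+1, at 10.41, 11.02 and 12.37, and differed by -0.75 ± 0.54 (adjusted p = 0.774). SOX17 and PDGFRA differed by 0.01 ± 0.24 and -0.31 ± 0.21 (adjusted p = 0.998 and 0.746).

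Secreted signals of the Nodal, FGF, BMP, Wnt and IL6 families held 2 falls and no rise in 56 genes (3.57%, beside 1.89% of all genes). The list's median was 0.04. BMP2, a growth factor of the visceral endoderm in the mouse, read 10.25, 10.38 and 10.27 in day6 and 9.26, 8.99 and 9.04 in day6+1. Both groups were tight and apart (-1.21 ± 0.26, adjusted p = 0.0184, 2.31-fold lower; slide 4, -1.24). IL6, a cytokine, read 10.87, 11.20 and 10.07 and 9.66, 8.71 and 9.10, so that day6 replicate 3 came close to day6+1 replicate 1 (-1.56 ± 0.28, adjusted p = 0.0054; slide 4, -0.97), and its dimmer second probe differed by 0.10. In this paragraph and the one before, single arrays ended the calls of HNF4A (1.28, adjusted p = 0.134 without day6 replicate 2), APOA1 (1.67, adjusted p = 0.112 without day6 replicate 2), BMP2 (-1.15, adjusted p = 0.11 without day6+1 replicate 2) and IL6 (-1.31, adjusted p = 0.0623 without day6 replicate 2), and so did averaging a gene's probes (HNF4A and IL6) and centring arrays on the median (BMP2).

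Among 44 genes of tight junctions and of ion and water transport into the blastocoel, only CLDN10 passed, and it fell (2.27%, beside 1.89% of all genes; median 0.10). CLDN10, a claudin that forms ion-selective pores, measured 9.62, 11.12 and 10.31 in day6 and 8.98, 8.65 and 8.74 in day6+1. The lowest day6 array was replicate 1, still above day6+1 (-1.56 ± 0.34, adjusted p = 0.0218, 2.95-fold lower; slide 4, -1.57). Among 51 matrix, integrin and protease genes 2 rose (PLAU and AGRN) and 1 fell (COL9A2), 5.88% of the list. COL9A2, a chain of the cartilage collagen type IX, measured 12.41, 12.83 and 12.73 and 10.36, 10.57 and 11.03. It was high and steady in day6 and lower on each day6+1 array (-2.00 ± 0.34, adjusted p = 0.00302, 4.01-fold lower; slide 4, -1.70; -1.68 ± 0.31, adjusted p = 0.0422 with the slide as a block). AGRN, a heparan sulfate proteoglycan of basement membranes, rose from 9.29 ± 0.37 to 10.42 ± 0.48 (1.13 ± 0.28, adjusted p = 0.0455). TNN, the matrix protein tenascin N, fell from 10.06 ± 0.39 to 8.46 ± 0.23 (-1.61 ± 0.38, adjusted p = 0.0372), and DST, a plakin that anchors the cytoskeleton at adhesion sites, from 11.78 ± 0.16 to 9.99 ± 0.18 (-1.79 ± 0.35, adjusted p = 0.0111). The COL9A2 call was kept with each array left out in turn; those that ended were CLDN10 (-1.18, adjusted p = 0.187 without day6 replicate 2), AGRN (0.97, adjusted p = 0.242 without day6 replicate 2), TNN (-1.38, adjusted p = 0.222 without day6 replicate 2) and DST (-1.70, adjusted p = 0.0818 without day6 replicate 2). Calls also ended with averaging a gene's probes (AGRN), centring arrays on the median (TNN), the trended, robust variance model (TNN) and a fit on the 6 arrays alone (AGRN).

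Of 41 stress-defence genes under the factor NRF2, 7 rose and none fell (17.1%), and 32 of the 41 differences were above 0. The list's median of 0.39 dropped to 0.23 once slides were fitted as a block, and slide 4 alone gave 0.14. HMOX1, the heme oxygenase that breaks heme down to biliverdin, iron and carbon monoxide, measured 7.91, 7.53 and 9.35 in day6 and 11.29, 11.62 and 11.29 in day6+1. The day6+1 arrays were alike and above all day6 arrays, of which replicate 3 was the highest (3.13 ± 0.41, adjusted p = 0.000334, 8.78-fold; slide 4, 1.93). SRXN1, which restores oxidised peroxiredoxins, measured 10.44, 10.77 and 10.80 and 11.63, 12.33 and 12.19, with no overlap (1.37 ± 0.23, adjusted p = 0.00315; slide 4, 1.38; a second probe, 0.25). GCLM, the modifier subunit of the enzyme that limits glutathione synthesis, measured 8.99, 9.44 and 9.28 and 10.13, 10.63 and 10.43, again apart (1.16 ± 0.25, adjusted p = 0.0182; slide 4, 1.15).

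The remaining rises of the NRF2 list, AKR1B1 aside, were smaller. MGST2, a microsomal glutathione transferase, rose from 7.99 ± 0.34 to 9.24 ± 0.20 (1.25 ± 0.29, adjusted p = 0.036), ABCC2, an export pump for conjugates, from 8.56 ± 0.53 to 9.73 ± 0.32 (1.18 ± 0.24, adjusted p = 0.0136), and FTH1, the ferritin heavy chain, from 14.47 ± 0.06 to 15.26 ± 0.12 (0.79 ± 0.18, adjusted p = 0.0235). HMOX1 and SRXN1 passed whichever array was left out. The other calls ended: GCLM (1.04, adjusted p = 0.128 without day6+1 replicate 2), MGST2 (1.05, adjusted p = 0.223 without day6 replicate 2), ABCC2 (0.87, adjusted p = 0.123 without day6 replicate 2) and FTH1 (0.77, adjusted p = 0.119 without day6 replicate 2). Further settings that ended a call were averaging a gene's probes (SRXN1 and FTH1), subtracting the background and scaling to the 75th percentile (FTH1), a fit on the 6 arrays alone (ABCC2 and FTH1) and leaving out replicate 1 of day6+1 and of day7 together (FTH1). The list's median was 0.51 with arrays centred on the median, 0.38 when scaled to the 75th percentile and 0.14 on slide 4 alone.

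Heme, iron and selenium genes showed both directions. In the heme and iron list 3 of 38 genes rose (HMOX1, HEBP2 and FTH1) and 1 fell, with a median of -0.03. HEBP2, a heme-binding protein, measured 10.45, 8.64 and 9.25 in day6 and 11.85, 13.19 and 12.24 in day6+1. Day6 replicate 1 was the highest of its group and still below day6+1 (2.98 ± 0.41, adjusted p = 0.000576, 7.90-fold; slide 4, 2.99), but 2 dimmer probes of the gene differed by 0.37 to 0.77. HBB, the beta chain of adult haemoglobin and the defining blood marker, measured 9.10, 9.24 and 8.84 and 7.24, 6.83 and 7.91, with day6+1 near the negative controls (-1.73 ± 0.42, adjusted p = 0.0404; slide 4, -0.93). Among 25 superoxide dismutases, peroxidases, selenoproteins and metallothioneins, 1 rose and 1 fell. SEPW1, the small selenoprotein W, measured 14.70, 14.99 and 14.00 and 12.80, 13.62 and 12.63; day6+1 replicate 2 was nearest to day6 (-1.55 ± 0.26, adjusted p = 0.00289, 2.93-fold lower; slide 4, -1.38; 2 other probes, -1.27 to -0.28). SEPP1, the secreted selenium carrier selenoprotein P, rose from 12.19 ± 0.50 to 13.32 ± 0.37 (1.13 ± 0.28, adjusted p = 0.0463). HEBP2 and SEPW1 passed with each array left out in turn. The calls that ended were HBB (-1.48, adjusted p = 0.245 without day6+1 replicate 2) and SEPP1 (0.92, adjusted p = 0.29 without day6+1 replicate 2), and further settings that ended a call were averaging a gene's probes (HEBP2, HBB and SEPP1), centring arrays on the median (HBB), the slide as a random block (HBB), the trended, robust variance model (HBB), a fit on the 6 arrays alone (SEPP1) and leaving out replicate 1 of day6+1 and of day7 together (HBB and SEPP1).

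Genes of the endoplasmic reticulum had a median difference of 0.29 over 39 members, with 1 rise and 1 fall (5.13%, beside 1.89% of all genes). EDEM1, which sends misfolded glycoproteins to degradation, measured 11.11, 10.85 and 11.32 in day6 and 11.72, 12.10 and 12.23 in day6+1, without overlap (0.92 ± 0.19, adjusted p = 0.0157; slide 4, 0.90). CREB3L2, a membrane-bound transcription factor of the secretory pathway, measured 10.07, 9.90 and 9.66 and 8.88, 8.65 and 8.80, in separate narrow ranges (-1.10 ± 0.25, adjusted p = 0.0282, 2.14-fold lower; slide 4, -0.86). When arrays were centred on the median, 4 members of the list rose and CREB3L2 did not pass. None of 30 cytosolic heat shock genes passed (median 0.02): BAG2, a cochaperone, differed by 0.64 ± 0.19 (adjusted p = 0.123) and DNAJB6 by -0.55 ± 0.19 (adjusted p = 0.217). Of 42 p53 and apoptosis genes only TP53I3 passed (2.38%, beside 1.89% of all genes), and the list median was 0.16. TP53I3, a quinone reductase under p53, rose from 8.21 ± 0.20 to 9.33 ± 0.25 (1.12 ± 0.27, adjusted p = 0.0429).

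TRIM63, a ubiquitin ligase known from muscle wasting, was the only 1 of 28 FOXO-linked and atrophy genes to pass (3.57%, beside 1.89% of all genes). Its levels were 12.71, 13.24 and 12.91 in day6 and 11.02, 10.31 and 10.20 in day6+1. All day6+1 arrays lay over 1 log2 unit below day6, the difference was -2.45 ± 0.37 (5.45-fold lower, adjusted p = 0.00134), -2.71 on slide 4, and -2.61 ± 0.46, adjusted p = 0.0335 with the slide as a block. TRIM63 kept its call with each array left out in turn, while single arrays ended the calls of EDEM1 (0.80, adjusted p = 0.123 without day6 replicate 2), CREB3L2 (-1.04, adjusted p = 0.15 without day6+1 replicate 2) and TP53I3 (1.01, adjusted p = 0.212 without day6 replicate 2). So did averaging a gene's probes (EDEM1 and TP53I3), centring arrays on the median (CREB3L2), a fit on the 6 arrays alone (EDEM1) and leaving out replicate 1 of day6+1 and of day7 together (TP53I3).

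Energy metabolism changed at single glycolytic enzymes. Of 35 glycolysis and lactate genes 3 rose and none fell, with a median of 0.14. TPI1, which interconverts the triose phosphates, measured 11.40, 10.38 and 11.56 in day6 and 13.19, 14.13 and 13.41 in day6+1. The groups were well apart (2.46 ± 0.37, adjusted p = 0.00132, 5.50-fold; slide 4, 1.85). ENO1, enolase, rose from 10.26 ± 0.18 to 11.47 ± 0.56 (1.21 ± 0.27, adjusted p = 0.0257; a dimmer probe, 0.16), and LDHA, the lactate dehydrogenase of glycolytic tissue, from 13.01 ± 0.35 to 14.01 ± 0.17 (1.00 ± 0.25, adjusted p = 0.0462; a second probe, 1.10). TPI1 passed whichever array was left out. The others did not: ENO1 (0.98, adjusted p = 0.203 without day6+1 replicate 2) and LDHA (0.84, adjusted p = 0.247 without day6 replicate 2). They also failed with averaging a gene's probes (ENO1), the slide as a random block (LDHA) and leaving out replicate 1 of day6+1 and of day7 together (LDHA).

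No mitochondrial list gave a call. Of 80 respiratory chain and ATP synthase subunits 68 had a difference below 0, with a median of -0.20. For 28 of them (and for none in the other direction) the day6+1 arrays all lay below the day6 arrays, beside 8.41% of genes that did so; the members' differences ran from -0.68 to 0.42. NDUFA8 differed by -0.68 ± 0.22 (adjusted p = 0.158) and NDUFA11 by -0.61 ± 0.19 (adjusted p = 0.143), both subunits of complex I. The list's median moved to -0.06 with arrays centred on the median, where the median of all features was 0.04, and it was -0.19 when scaled to the 75th percentile and -0.12 on slide 4. In the citrate cycle list of 25 genes the median was -0.08; SUCLA2, a subunit of succinyl-CoA ligase, differed by -0.68 ± 0.18 (adjusted p = 0.0608) and ME1, malic enzyme, by 0.63 ± 0.23 (adjusted p = 0.268).

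Of 35 cholesterol synthesis genes 5 rose and none fell (14.3%) with a list median of 0.36. HMGCS1, which makes HMG-CoA at the start of the mevalonate path, measured 12.85, 12.83 and 13.35 in day6 and 14.19, 14.43 and 14.86 in day6+1. The groups were separate, with replicate 3 the highest in each (1.49 ± 0.24, adjusted p = 0.00255, 2.80-fold; slide 4, 1.51; 3 other probes, -0.12 to 1.09). PMVK, which phosphorylates mevalonate phosphate, measured 8.23, 7.63 and 7.63 and 9.11, 9.25 and 9.43; all day6+1 arrays were higher (1.44 ± 0.23, adjusted p = 0.00206; slide 4, 1.80; 1.93 ± 0.32, adjusted p = 0.0276 with the slide as a block), but a second probe differed by 0.14. ACAT2, which joins 2 acetyl-CoA units, rose from 11.62 ± 0.22 to 12.73 ± 0.34 (1.11 ± 0.21, adjusted p = 0.00678). The later enzymes CYP51A1, lanosterol demethylase, and HSD17B7, a sterol ketone reductase, rose by 1.31 ± 0.28 (adjusted p = 0.0204) and 0.95 ± 0.22 (adjusted p = 0.0343), and 2 other CYP51A1 probes by 1.03 to 1.12. HMGCS1 and PMVK passed with each array left out in turn. The calls that ended were ACAT2 (1.01, adjusted p = 0.0636 without day6 replicate 2), CYP51A1 (1.09, adjusted p = 0.165 without day6 replicate 2) and HSD17B7 (0.88, adjusted p = 0.181 without day6+1 replicate 2), and further settings that ended a call were averaging a gene's probes (ACAT2 and PMVK) and leaving out replicate 1 of day6+1 and of day7 together (HSD17B7).

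Of 52 fatty acid genes 6 rose and none fell (11.5%; median 0.20): 3 desaturases, 2 acyltransferases of glycerolipid synthesis and a fatty acid carrier. FADS2, the delta-6 desaturase, measured 13.28, 12.72 and 13.15 in day6 and 14.54, 14.97 and 14.69 in day6+1. The lowest day6+1 array was more than 1 log2 unit above the highest of day6 (1.68 ± 0.21, adjusted p = 0.000169, 3.21-fold; slide 4, 1.54). FADS3, a desaturase of the same family, measured 10.00, 9.58 and 9.82 and 11.00, 11.69 and 11.92, with replicate 1 lowest in day6+1 (1.74 ± 0.24, adjusted p = 0.000542; slide 4, 2.10; a second probe, 0.31). SCD, which makes monounsaturated fatty acids, measured 12.94, 12.87 and 13.78 and 14.76, 14.61 and 14.61; day6 replicate 3 was the nearest to day6+1 (1.46 ± 0.28, adjusted p = 0.0087; slide 4, 0.83).

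AGPAT9, now named GPAT3, adds the first fatty acid to glycerol phosphate and rose from 11.79 ± 0.49 to 13.31 ± 0.08 (1.52 ± 0.24, adjusted p = 0.00176; 2 other probes, 0.31 to 0.86). AGPAT3, which adds the next one, rose from 7.68 ± 0.14 to 8.70 ± 0.28 (1.03 ± 0.22, adjusted p = 0.022), and FABP5, a fatty acid carrier, from 8.09 ± 0.36 to 9.80 ± 0.85 (1.71 ± 0.35, adjusted p = 0.0146). GK, glycerol kinase, moved the other way, from 11.43, 11.65 and 11.12 in day6 to 9.54, 9.27 and 9.88 in day6+1. Its groups were tight and well apart (-1.84 ± 0.20, adjusted p = 7.39e-05, 3.57-fold lower; slide 4, -1.24), although a dimmer second probe differed by -0.02. Without single arrays FADS2, FADS3, AGPAT9 and GK kept their calls, and the calls ended for SCD (1.30, adjusted p = 0.0818 without day6 replicate 2), AGPAT3 (0.95, adjusted p = 0.139 without day6 replicate 2) and FABP5 (1.50, adjusted p = 0.123 without day6 replicate 2). Other settings that ended a call were averaging a gene's probes (AGPAT9) and subtracting the background and scaling to the 75th percentile (AGPAT3).

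Glycine, serine and one-carbon enzymes had 3 rises and 3 falls among 50 genes (12%; median 0.04). GLDC and GCSH, which fell, belong to the glycine cleavage system, which splits glycine in mitochondria. GLDC, its decarboxylase, measured 12.28, 12.28 and 11.84 in day6 and 10.69, 10.02 and 9.53 in day6+1. The day6 arrays were steady and all higher (-2.05 ± 0.47, adjusted p = 0.0298, 4.15-fold lower; slide 4, -2.31). GCSH, its lipoyl carrier protein, measured 14.21, 14.73 and 14.02 and 13.15, 12.63 and 13.03; the groups did not overlap (-1.38 ± 0.33, adjusted p = 0.0385; slide 4, -0.99), and 2 other probes moved alike (-1.37 to -1.28). AGXT2L1, now named ETNPPL, which breaks down phosphoethanolamine, measured 10.15, 11.29 and 9.26 in day6 and 8.31, 7.54 and 6.80 in day6+1. It was the largest fall among the called genes (-2.68 ± 0.49, adjusted p = 0.00598, 6.41-fold; slide 4, -2.46), and both groups spread over more than 1 log2 unit.

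The 3 rises of that list were MTHFD2, the mitochondrial folate enzyme, from 8.55 ± 0.28 to 9.99 ± 0.40 (1.44 ± 0.36, adjusted p = 0.0464), CTH, which releases cysteine from cystathionine, from 10.78 ± 0.30 to 11.73 ± 0.24 (0.95 ± 0.23, adjusted p = 0.0411), and GATM, the first enzyme of creatine synthesis, from 7.46 ± 0.66 to 9.18 ± 0.83 (1.72 ± 0.39, adjusted p = 0.0271). For GATM the slide-4 difference was 0.16. All 6 calls ended in at least 1 leave-one-out fit: GLDC (-1.98, adjusted p = 0.149 without day6 replicate 2), GCSH (-1.18, adjusted p = 0.226 without day6 replicate 2), AGXT2L1 (-2.15, adjusted p = 0.0686 without day6 replicate 2), MTHFD2 (1.28, adjusted p = 0.245 without day6+1 replicate 2), CTH (0.88, adjusted p = 0.199 without day6 replicate 2) and GATM (1.37, adjusted p = 0.208 without day6 replicate 2). Further settings that ended a call were averaging a gene's probes (GCSH and MTHFD2), centring arrays on the median (GCSH), the authors' deposited table (MTHFD2), the slide as a random block (MTHFD2 and CTH), the trended, robust variance model (GLDC, GCSH, AGXT2L1, MTHFD2 and GATM), a fit on the 6 arrays alone (CTH and GATM) and leaving out replicate 1 of day6+1 and of day7 together (GCSH, CTH and GATM).

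Of 297 solute carriers 5 rose and 2 fell (2.36%, beside 1.89% of all genes). SLC23A1, a vitamin C transporter, measured 8.83, 8.08 and 8.09 in day6 and 10.21, 11.12 and 10.76 in day6+1. All 3 day6+1 arrays lay over 1 log2 unit above day6 (2.37 ± 0.29, adjusted p = 0.000146, 5.16-fold; slide 4, 2.67; 2.62 ± 0.45, adjusted p = 0.028 with the slide as a block), while a second probe differed by -0.06. SLC44A4, of the choline transporter-like family, measured 9.86, 9.52 and 9.59 and 11.11, 11.91 and 11.57, with no overlap (1.87 ± 0.29, adjusted p = 0.00146; slide 4, 1.98). SLC13A4, a sulfate transporter of the placenta, measured 7.46, 6.80 and 7.40 and 8.42, 9.95 and 8.99; replicate 2 was highest in day6+1 (1.90 ± 0.33, adjusted p = 0.00368; slide 4, 1.59). SLC19A1, the reduced folate carrier, rose by 1.00 ± 0.21 (adjusted p = 0.0168) and SLC41A2, a magnesium transporter, by 0.77 ± 0.17 (adjusted p = 0.0204). SLC1A3, a glutamate transporter, and SLC36A4, an amino acid transporter, fell by 0.96 ± 0.23 and 0.97 ± 0.18 (adjusted p = 0.0394 and 0.00719). SLC23A1, SLC44A4 and SLC13A4 kept their calls with each array left out in turn; the calls ended for SLC19A1 (0.84, adjusted p = 0.136 without day6+1 replicate 2), SLC41A2 (0.70, adjusted p = 0.136 without day6+1 replicate 2), SLC1A3 (-0.75, adjusted p = 0.279 without day6+1 replicate 2) and SLC36A4 (-0.90, adjusted p = 0.0617 without day6+1 replicate 2). Other settings that ended a call were averaging a gene's probes (SLC1A3), centring arrays on the median (SLC1A3 and SLC36A4), a fit on the 6 arrays alone (SLC41A2 and SLC1A3) and leaving out replicate 1 of day6+1 and of day7 together (SLC1A3).

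No gene of the cell division, DNA replication or chromatin lists passed. Of 63 mitotic genes 51 had a difference below 0 (median -0.22), from -0.98 for the motor protein KIF15 (SE 0.25, adjusted p = 0.0586) to 0.36; KIF20A, another mitotic motor, differed by -0.75 ± 0.22 (adjusted p = 0.109). In 19 of the 63 the day6+1 arrays all lay below day6, and in 2 all above, beside 8.41% and 9.48% of all genes. The mitotic median moved to -0.07 with arrays centred on the median and was -0.22 both when scaled to the 75th percentile and on slide 4. Among 55 replication genes (median -0.09) CHEK1 differed by -0.66 ± 0.20 and MCM6 by -0.58 ± 0.19 (adjusted p = 0.116 and 0.176), and among 67 chromatin enzymes (median -0.07) HDAC6 by -0.92 ± 0.24 and JARID2 by -0.61 ± 0.21 (adjusted p = 0.0577 and 0.195).

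Histones held 1 rise and 1 fall in 17 genes. HIST1H2BN, a histone H2B symbol that matches 2 current genes, measured 13.22, 12.47 and 12.52 in day6 and 11.03, 11.15 and 10.83 in day6+1. The 3 day6+1 arrays lay together over 1 log2 unit below day6 (-1.73 ± 0.28, adjusted p = 0.00219, 3.32-fold lower; slide 4, -1.69). H2AFY, now MACROH2A1, the variant macroH2A linked to silent chromatin, rose from 12.12 ± 0.27 to 13.07 ± 0.27 (0.96 ± 0.19, adjusted p = 0.0131; a dimmer second probe, -0.19). No gene of the DNA methylation list (16) or the imprinted list (24) passed: DNMT3A, a de novo methyltransferase, differed by 0.71 ± 0.18 (adjusted p = 0.0504), GADD45B by -0.59 ± 0.30 (adjusted p = 0.546), and ASCL2, an imprinted trophoblast factor in the mouse, by 1.15 ± 0.32 (adjusted p = 0.0859). MEST was not above the negative controls on any day6 array, and its difference did not pass (adjusted p = 0.233). HIST1H2BN passed in every leave-one-out fit; H2AFY (0.81, adjusted p = 0.115 without day6+1 replicate 2) did not, nor did it with averaging a gene's probes and a fit on the 6 arrays alone.

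Of 34 calcium-binding genes 5 rose and none fell (14.7%; median 0.24). CALB1, the cytosolic calcium buffer calbindin, measured 7.76, 7.48 and 8.37 in day6 and 9.68, 10.02 and 10.14 in day6+1. The day6+1 arrays were close together above day6, whose replicate 3 was highest (2.08 ± 0.34, adjusted p = 0.00255, 4.21-fold; slide 4, 1.77), and 2 other probes differed by 0.36 to 0.54. ANXA4 and ANXA1, annexins that bind membranes when calcium rises, went from 8.01 ± 0.22 to 9.49 ± 0.34 (1.48 ± 0.29, adjusted p = 0.0112; 2 other probes, 1.00 to 1.21) and from 12.43 ± 0.20 to 13.49 ± 0.10 (1.06 ± 0.25, adjusted p = 0.0365). S100A2 and S100A10, small EF-hand proteins, rose by 1.33 ± 0.28 (adjusted p = 0.0182) and 0.91 ± 0.19 (adjusted p = 0.0152). CALB1 passed with each array left out in turn, and the calls ended for ANXA4 (1.29, adjusted p = 0.102 without day6+1 replicate 2), ANXA1 (0.95, adjusted p = 0.199 without day6 replicate 2), S100A2 (0.98, adjusted p = 0.155 without day6+1 replicate 2) and S100A10 (0.88, adjusted p = 0.0873 without day6+1 replicate 2). Other settings that ended a call were a fit on the 6 arrays alone (S100A2) and leaving out replicate 1 of day6+1 and of day7 together (ANXA1).

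Of 63 actin cytoskeleton and small GTPase genes 2 rose and none fell (3.17%, beside 1.89% of all genes). ARPC1B, a subunit of the actin-branching Arp2/3 complex, measured 8.56, 8.06 and 8.48 in day6 and 9.57, 9.34 and 10.61 in day6+1, and replicate 3 was highest in day6+1 (1.47 ± 0.27, adjusted p = 0.00668; slide 4, 2.12; 2.32 ± 0.30, adjusted p = 0.0105 with the slide as a block). TUBB6, a beta tubulin, rose from 9.20 ± 0.26 to 11.01 ± 0.50 (1.81 ± 0.33, adjusted p = 0.0054). In the lysosome and autophagy list 2 of 58 rose and 1 fell (5.17%). SCARB2, a receptor that delivers an enzyme to lysosomes, rose by 1.33 ± 0.26 (adjusted p = 0.00985, with 2 other probes at 1.26 to 1.27). ASAH1, acid ceramidase, rose by 1.61 ± 0.32 (adjusted p = 0.0131), and LGMN, a lysosomal protease, fell by 0.68 ± 0.16 (adjusted p = 0.0382). None of 69 ribosomal proteins (median 0.02; RPL22L1, 0.36 ± 0.16, adjusted p = 0.419; RPL28, -0.40 ± 0.18, adjusted p = 0.431) and none of 47 proteasome genes (median 0.05; PSMC4, -0.45 ± 0.18, adjusted p = 0.311) passed, and PSMB8 was not above the negative controls in day6 (adjusted p = 0.53). Each of the 5 calls ended in some leave-one-out fit: ARPC1B (1.32, adjusted p = 0.0668 without day6 replicate 2), TUBB6 (1.58, adjusted p = 0.0571 without day6+1 replicate 2), SCARB2 (1.01, adjusted p = 0.0976 without day6 replicate 2), ASAH1 (1.12, adjusted p = 0.102 without day6+1 replicate 2) and LGMN (-0.61, adjusted p = 0.195 without day6 replicate 2). Further settings that ended a call were averaging a gene's probes (ASAH1), centring arrays on the median (LGMN), subtracting the background and scaling to the 75th percentile (LGMN), the trended, robust variance model (LGMN), a fit on the 6 arrays alone (LGMN) and leaving out replicate 1 of day6+1 and of day7 together (LGMN).

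The remaining large falls outside the lists were those of ITPKA, TMEM37 and LOC538435. ITPKA, a kinase of the calcium messenger inositol trisphosphate, measured 8.55, 9.66 and 9.54 in day6 and 7.20, 7.73 and 7.92 in day6+1, without overlap (-1.63 ± 0.28, adjusted p = 0.00368; slide 4, -1.62). TMEM37, a membrane protein, fell from 10.38 ± 0.47 to 8.74 ± 0.38 (-1.63 ± 0.27, adjusted p = 0.00307; a second probe, -0.86), with -0.66 on slide 4. LOC538435, a locus without a gene name, fell from 9.72 ± 0.51 to 8.03 ± 0.20 (-1.69 ± 0.39, adjusted p = 0.0341). ITPKA and TMEM37 passed with each array left out in turn. The call of LOC538435 (-1.42, adjusted p = 0.218 without day6 replicate 2) ended, as it did with centring arrays on the median, the trended, robust variance model and leaving out replicate 1 of day6+1 and of day7 together.

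When the background was subtracted and arrays were scaled to the 75th percentile, the median of all features shifted by -0.116 to -0.13. The medians of 11 lists then turned from above to below 0: trophoblast secreted products, prostaglandins, pluripotency, hypoblast, signals, amino acid and one-carbon enzymes, solute carriers, interferon-stimulated genes, cumulus, fibroblast and kidney, and sex-linked genes. With arrays centred on the median, where it shifted by 0.05, the medians of 7 lists turned from below to above 0: heme and iron, atrophy, citrate cycle, replication, chromatin, DNA methylation and imprinted genes.

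**Figure D3:**
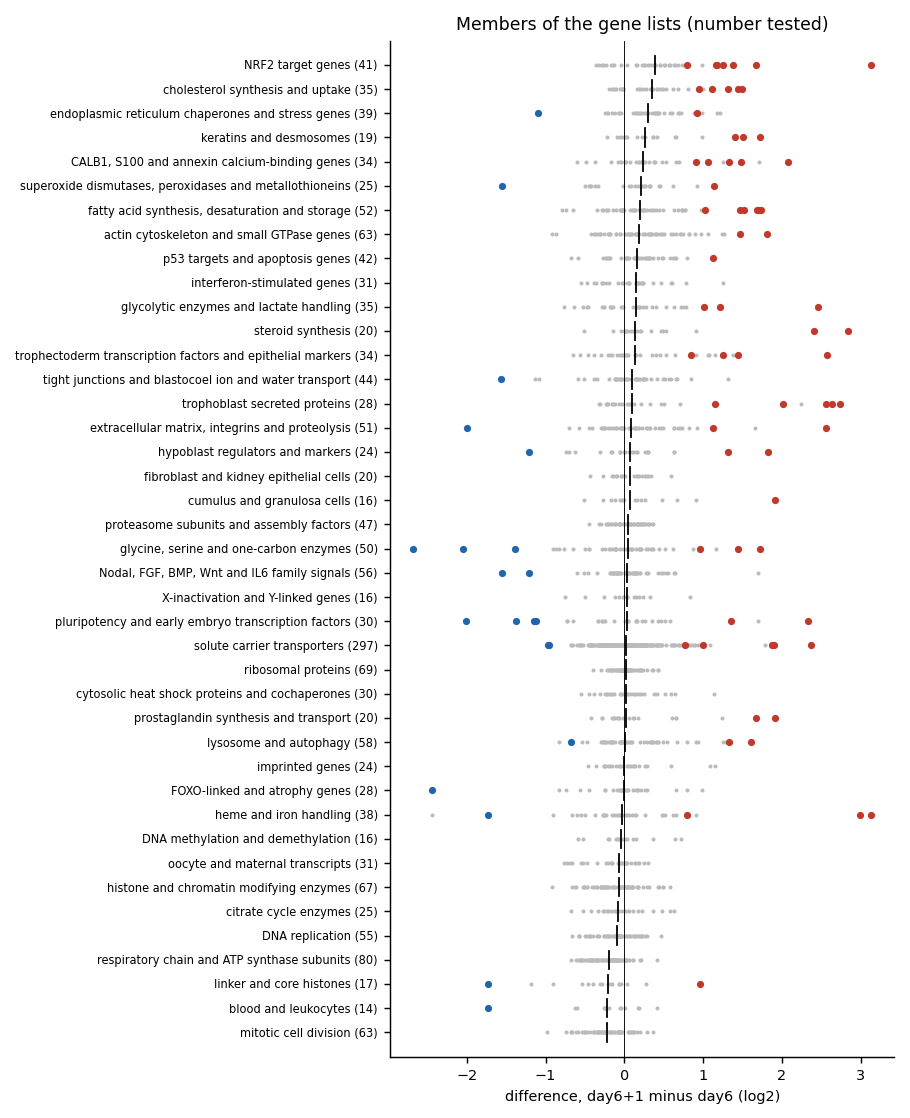
Each row is 1 of 41 gene lists with the number of members tested, sorted by median; points are members' differences day6+1 minus day6 (log2), red or blue where the member passed the threshold and grey otherwise, and the black bar is the list's median. Red points stand out to the right in the NRF2 target, cholesterol, fatty acid, calcium-binding and trophoblast secreted lists, while the respiratory chain and mitotic lists sit to the left of 0 without a coloured point.

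The levels of day6+1 were then set beside embryos of the same age, 7 days after fertilisation, whose cavity had just formed. Replicates 1 and 2 of day7 shared slide 3 with those of day6+1, and replicate 3 of day7 was on slide 5. Replicates 1 and 2 of day6 were on slide 1. Nearness of day7 to day6+1 by age and by slide therefore cannot be told apart. No feature passed in day6+1 against day7 (limma; 1811 at an unadjusted p under 0.05, and 0 with replicate number as a block, where same-numbered arrays correlated). For the 303 features higher in day6+1 than in day6, the median level was 9.31 in day6, 10.90 in day6+1 and 10.42 in day7. For the 126 lower ones it was 10.27, 8.97 and 9.42, so day7 lay between the 2 groups in both sets. Their median difference of day6+1 from day7 was 0.44 and -0.45, which is a description, since the features were chosen on the same day6+1 arrays. The gene with the smallest p against day7 was HIST1H1D, a linker histone now named H1-3: it stood at 8.02 ± 0.13 in day6+1, 9.67 ± 0.10 in day7 and 8.92 ± 0.38 in day6 (adjusted p = 0.0633 against day7). GCLM was at 10.40 ± 0.25 against 9.15 ± 0.39 in day7 and DSP at 12.54 ± 0.09 against 11.53 ± 0.20 (adjusted p = 0.358 for both).

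**Figure D4:**
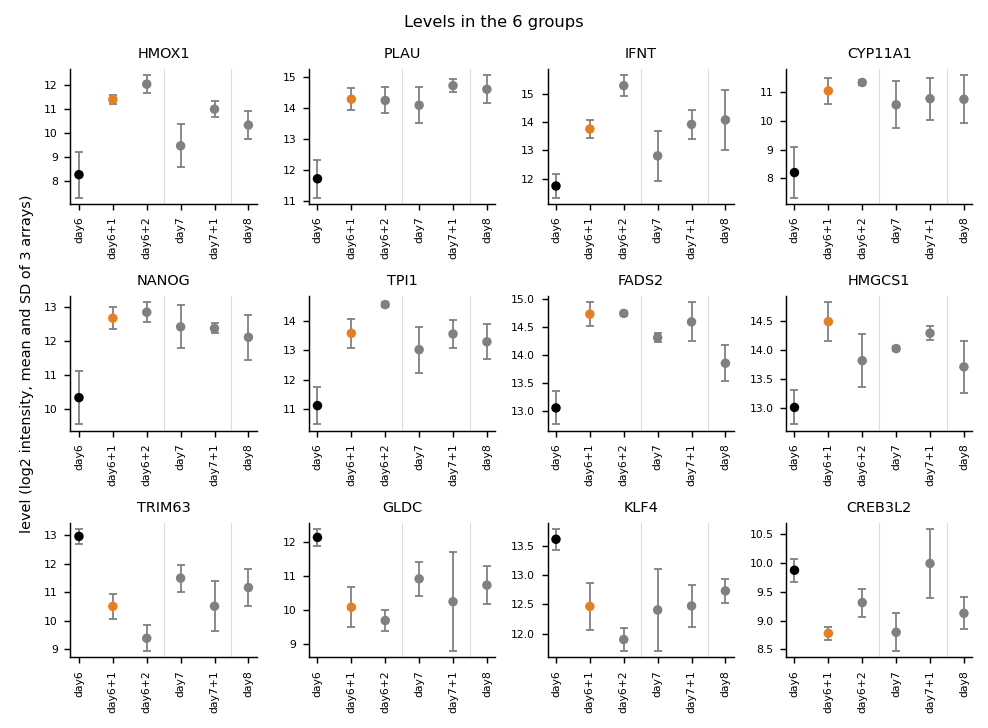
Levels (log2 intensity; mean and SD of 3 arrays) of 12 genes in the 6 groups, with day6 in black, day6+1 in orange and the other groups in grey; vertical lines separate the groups by the day on which the cavity formed. In 11 of the 12 panels the day6 mean is the lowest or the highest of the 6; CREB3L2 is the exception, with day7+1 at 9.99 ± 0.61 above day6 at 9.88 ± 0.20.

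HMOX1 shows the order of groups for a gene that rose: 8.26 ± 0.96 in day6, 9.47 ± 0.90 in day7, 10.33 ± 0.60 in day8, 10.99 ± 0.32 in day7+1, 11.40 ± 0.19 in day6+1 and 12.03 ± 0.36 in day6+2. The mean ± SD ranges of neighbours in that order overlapped, except those of day6+1 and day6+2. IFNT ran from 11.74 ± 0.42 in day6 over 12.80 ± 0.87 in day7, 13.75 ± 0.31 in day6+1, 13.92 ± 0.51 in day7+1 and 14.07 ± 1.06 in day8 to 15.28 ± 0.36 in day6+2. NANOG stood at 10.33 ± 0.79 in day6 and at 12.67 ± 0.32, 12.84 ± 0.30, 12.42 ± 0.63, 12.37 ± 0.15 and 12.11 ± 0.65 in day6+1, day6+2, day7, day7+1 and day8, so all 5 later means lay above day6. TRIM63 stood at 12.95 ± 0.27 in day6 and at 10.51 ± 0.44, 9.39 ± 0.45, 11.49 ± 0.47, 10.51 ± 0.87 and 11.16 ± 0.65 in the same order of groups, with day6+2 lowest.

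The extra day after a day-7 cavity, day7+1 against day7, shares no array with day6+1 against day6. Day7 was on slides 3 and 5 and day7+1 on slides 2 and 4. As no slide held both, slide and group cannot be told apart there. Of the 303 features that rose after day 6, 254 (83.8%) were also higher in day7+1 than in day7, with a median difference of 0.34; of the 126 that fell, 103 were lower, with a median of -0.35. Over all features 50.5% were higher and the median was 0.00. None of the 429 passed there, where 5 features (0.0146%) passed in all. HMOX1 differed by 1.53 ± 0.41 after day 7, QSOX1 by 1.20 ± 0.32, LOC513329 by 1.24 ± 0.64, TFAP2A by 1.10 ± 0.32 and IFNT by 1.11 ± 0.43. For STAP2, NANOG, KRT19, HSD3B1 and SFN the day-7 difference was -0.08 ± 0.36, -0.05 ± 0.35, 0.04 ± 0.30, -0.01 ± 0.39 and -0.01 ± 0.24. Among the falls, TRIM63 differed by -0.98 ± 0.37, GK by -0.77 ± 0.20, COL9A2 by -0.75 ± 0.34 and KLF4 by 0.07 ± 0.28.

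The difference between the 2 extra days was tested as an interaction, and 2 features passed (0.00584%; 2304 at an unadjusted p under 0.05): CREB3L2 and a probe without a symbol. The count was 0 without day6+1 replicate 2, day7 replicate 1 or 2, or day7+1 replicate 1 or 2, it was 74 without day7 replicate 3, and it was 0 with the slide as a block. With the replicate number as a block it was 54; same-numbered arrays of day6+1 and day7 deviated together. CREB3L2 fell by 1.10 ± 0.25 after day 6 and differed by 1.20 ± 0.25 after day 7, an interaction of -2.30 ± 0.35 (adjusted p = 0.0322). The genes next by p were TBC1D8, a GTPase regulator, which rose by 1.04 ± 0.19 after day 6 (adjusted p = 0.00575) and differed by -0.50 ± 0.19 after day 7 (interaction adjusted p = 0.0569), and DMBT1, a mucin-like scavenger protein, at 0.51 ± 0.31 and -1.87 ± 0.31 (interaction adjusted p = 0.069). The TBC1D8 call of day6+1 against day6 ended with averaging a gene's probes (0.50, adjusted p = 0.215) and without day6+1 replicate 2 (adjusted p = 0.0571), and its second probe differed by -0.04. Between day6+1 and day6+2 no feature passed; for the 303 rises the median went from 10.90 to 11.11 and for the 126 falls from 8.97 to 8.79.

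**Figure D5:**
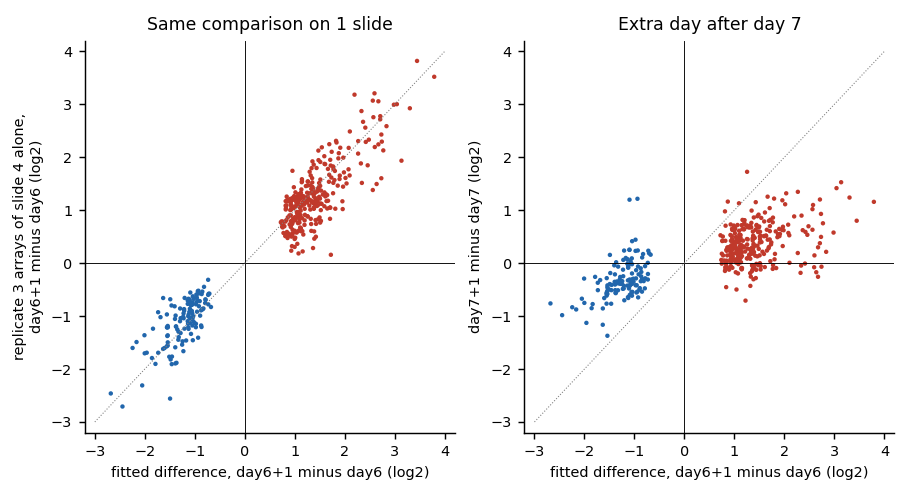
Both panels show the 429 features called in day6+1 against day6 (red higher, blue lower), with the fitted difference (log2) on the x axis; the y axis gives the difference between the replicate 3 arrays of slide 4 (left) and day7+1 minus day7 (right), and the dotted line marks equal values. On the left all points keep their sign around the dotted line, which for 428 of them follows from groups that do not overlap. On the right 254 red points are above 0 and 103 blue points below it, mostly at smaller differences. The 2 blue points above 1 are those that passed the interaction test.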

How the data were processed

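Gene expression was measured in 18 bovine blastocyst samples on 1-colour arrays, 3 per group. The deposited scanner files hold raw and background intensity per spot, not yet normalized, and the median of each was used here. The authors' deposited value table holds log2 values, which matched quantile normalization of the subtracted intensity on each array; R 3.2.4 and limma 3.28.5 are named in the submitters' processing notes for 9 of the 18 arrays. The genome build is not given in the sources used here.

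The intensities as deposited were background-corrected with normexp (offset 50) and quantile-normalized, with spots marked to be ignored left missing (183 values). A probe was kept if it exceeded the 95th percentile of 153 negative control spots on at least 3 arrays (39986 of 43794). The brightest probe stood for each symbol; 22004 probes have no symbol. Each group's mean was fitted with limma 3.58.1 (R 4.3.3, lmFit and eBayes) over all 18 arrays, with p-values adjusted over 34265 features and a threshold of 0.05. In data simulated for day6+1 against day6, over 34082 features, 62 of 100 changes of 1 log2 unit and 99 of 100 of 2 were recovered, with 12 false calls. The simulated noise was independent between features and held no slide or array effect. The simulated counts therefore do not cover the confounding of slide and group. Slides were read from the names of the arrays' files. A fold beside a probe not above background is a bound. It is taken against the higher, on each array, of the 95th percentile of the negative controls and the probe itself.

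The members, the 41 gene lists and the tests were chosen with earlier results of these data known. Named are the 15 largest rises and falls among called genes with groups that do not overlap, every called member of a list (or, in a list with none, the 2 members with the smallest p), the cell type markers, and for the other comparisons the called genes or the 3 with the smallest p. Same-numbered arrays of day6+1 and day7 all deviated together (r = 0.452, 0.108 and 0.235 for replicates 1 to 3). Of day6+1 and day6 only replicate 2 did (-0.01, 0.262 and 0.04), so these were not treated as paired. Alternatives were the scaling, the authors' table, the dim-probe filter, the mean of a gene's probes, slide or replicate number as a block, the variance model, the 6 arrays alone, and leaving out arrays; precision is limited by 3 arrays a group.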

Additional observations from a re-analysis of the deposited data

Results flagged for a closer look

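The extra day after a day-6 cavity and the extra day after a day-7 cavity differed for 2 features, by a test of the difference itself. No slide held both day7 and day7+1, so slide and the extra day cannot be told apart there. With the slide as a fixed block the count was 0. CREB3L2 (a membrane-bound factor that induces genes of secretion) measured 9.88 ± 0.20 in day6 and 8.78 ± 0.12 in day6+1, but 8.80 ± 0.33 in day7 and 9.99 ± 0.61 in day7+1 (mean ± SD of log2 intensity, n = 3 arrays). The difference between the differences was -2.30 ± 0.35 (limma, adjusted p = 0.0322).

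The probe EMBV3_37916, which has no gene symbol in the files, measured 15.42 ± 0.12 in day6 and 14.48 ± 0.37 in day6+1, and 14.25 ± 0.32 in day7 and 15.47 ± 0.14 in day7+1, with a difference between the differences of -2.16 ± 0.33 (adjusted p = 0.0322). Both stood lower after the extra day that followed a day-6 cavity and higher after the one that followed a day-7 cavity.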

How the results depend on the processing

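The direction of all 429 calls, where the feature was tested, was the same in every alternative run. In the fits that left out arrays this could not differ for the features whose groups did not overlap. Over the fits that left out 1 array, the calls in day6+1 against day6 numbered 127 to 364 (95 to 270 higher and 25 to 108 lower), those in day6+1 against day7 stayed at 0, and the interaction gave 0 to 74. Arrays centred on the median gave 391 higher and 50 lower (88.7% higher, against 70.6%) and an interaction count of 4. Subtracted background with scaling to the 75th percentile gave 1 feature against day7 and 25 in the interaction. With slide as a fixed block 29 features passed (25 higher, 4 lower), 1 against day7 and 0 in the interaction; as a random block the last 2 counts were 1 and 0. Replicate number as a block puts same-numbered arrays of all groups together, those of day6 and day6+1 included. It gave 666 features (461 higher, 205 lower), 0 against day7 and 54 in the interaction. The trended, robust variance model gave 1 against day7 and 22 in the interaction, and a fit on the compared arrays alone 10 in the interaction. Among alternatives added after seeing the data, leaving out replicate 1 of day6+1 and of day7 gave 0 in the interaction, and leaving out features that follow the first component gave 1 against day7 and 29 in the interaction. The cause was not tested. Of the 98 named calls, 36 were kept whichever array was left out, 96 with the authors' deposited table, 92 with slide as a random block, 87 with arrays centred on the median and 71 when the probes of each gene were averaged. The calls of KLF4, TNN, TP53I3, HSD17B7, ANXA1 and LGMN ended in all 6 fits that left out 1 array, of which the text above prints the weakest. Calls of 5 features rest on a day6 level not above background and of 2 on such a day6+1 level.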

Other observations

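Further called genes in no list are given as single values; they were chosen after their values were seen. Among the rises were LTBR, the lymphotoxin beta receptor (1.69 ± 0.24, adjusted p = 0.000733), IRF5, an interferon regulatory factor (1.59 ± 0.26, adjusted p = 0.00217), TNIP1, an inhibitor of NF-kappaB signalling (1.61 ± 0.25, adjusted p = 0.00158), and TNFSF9, a TNF family ligand (1.63 ± 0.29, adjusted p = 0.0054). IFI30, a lysosomal thiol reductase, went from 8.04 ± 0.50 in day6 to 10.31 ± 0.97 in day6+1 (2.27 ± 0.48, adjusted p = 0.018). CLEC4E, a lectin receptor of myeloid cells, rose by 1.71 ± 0.36 (adjusted p = 0.0167). PTPRC, the common leukocyte antigen, did not pass (0.42 ± 0.27, adjusted p = 0.721). IL33 was not above the negative controls on any day6 array and stood at 8.66 ± 0.59 in day6+1 (adjusted p = 0.00495).

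ALDH3A2, a fatty aldehyde dehydrogenase, rose by 1.60 ± 0.23 (adjusted p = 0.000837), and the dipeptidase DPEP1 by 1.88 ± 0.21 (adjusted p = 8.2e-05). ABCB1, an efflux pump, rose by 1.12 ± 0.22 (adjusted p = 0.00919), CYP3A5 by 1.30 ± 0.29 (adjusted p = 0.027), and PRSS8, a serine protease that activates epithelial sodium channels, by 1.90 ± 0.33 (adjusted p = 0.00368). CIDEB, a lipid droplet protein, went from 7.27 ± 0.44 to 9.37 ± 0.47 (2.10 ± 0.35, adjusted p = 0.00302), and SCIN, an actin-severing protein, from 8.52 ± 0.41 to 10.47 ± 0.73 (1.95 ± 0.36, adjusted p = 0.00616).

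Falls outside the lists included ALDH1A1, which makes retinoic acid (-1.51 ± 0.32, adjusted p = 0.0184), JAG1, a Notch ligand (-1.08 ± 0.26, adjusted p = 0.0417), PDGFB, a platelet-derived growth factor (-1.12 ± 0.23, adjusted p = 0.0146), KRT5, a keratin of basal epithelia (-1.54 ± 0.38, adjusted p = 0.0463), and CXCL14, a chemokine (-1.39 ± 0.34, adjusted p = 0.0485). All p-values here are adjusted over all features in the limma fit. With the slide as a block LTBR, IRF5, TNIP1 and DPEP1 passed, and the other genes named here did not. On slide 4 the difference was over 1.5 times smaller for SCIN (1.17), CLEC4E (1.05) and ABCB1 (0.60).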
